A study of Homo sapiens with 24 samples.

Results

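The genes described here are 51 genes of ribosome biogenesis and RNA polymerase I. They were taken by gene symbol, out of 19702 genes counted, from a list chosen with earlier results of these data known. They comprise 6 RNA polymerase I subunits (POLR1A, POLR1B, POLR1C, POLR1D, POLR1E and POLR1G), 3 proteins of the box C/D small nucleolar RNPs (NOP56, NOP58 and FBL) and 4 of the box H/ACA RNPs (DKC1, NHP2, NOP10 and GAR1). A further 6 are nucleolar phosphoproteins and regulators (NOLC1, NCL, NPM1, GNL3, LYAR and DDX21). The 14 genes of small subunit assembly are NOP14, RRP9, RRP12, UTP4, UTP15, UTP20, WDR43, WDR75, NOC4L, BYSL, TSR1, LTV1, HEATR1 and DDX10. The 18 genes of large subunit assembly are BOP1, PES1, WDR12, NOP2, NOP16, RRS1, RRP1, RRP1B, WDR74, PPAN, GNL2, NIP7, NOC2L, NOC3L, MRTO4, URB2, DDX18 and EBNA1BP2. RNA was sequenced from PC9 and H1975, both established lines of human lung adenocarcinoma with activating mutations of EGFR. Each line was given the combination of almonertinib and paclitaxel, almonertinib alone, paclitaxel alone or the control condition for 24 h, with 3 libraries per group and 24 in all. Almonertinib, a mutant-selective inhibitor of the EGFR kinase, was used alone at 2 nM in PC9 and 1 nM in H1975. Paclitaxel, which stabilises microtubules, was used alone at 0.3 nM in PC9 and 1 nM in H1975, and the labels do not state the doses of the combination separately. The question was how the genes that build ribosomes were expressed under an EGFR inhibitor, a microtubule drug and both together.

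Ribosome production starts in the nucleolus, where RNA polymerase I transcribes the precursor of the large ribosomal RNAs. Box C/D and box H/ACA RNPs modify that precursor, the small subunit processome folds and cleaves it, and separate sets of factors assemble the small and large subunits before export. The supply of these factors follows growth signalling, and many of their genes are known targets of the transcription factor MYC, which EGFR signalling through the MAP kinase pathway sustains.

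In each library 14232299 to 24245314 reads were counted. Of the 51 genes, 50 passed the filter on low counts in every fit. NOP2, an rRNA methyltransferase, did not pass, with 0 to 6 reads per library, and 54.4% of its annotated exon bases overlap AC006064.6 on the same strand. The 6 epithelial markers were all above 1 CPM in every library of both lines. Of 4 lung epithelial markers, whose summed level was 0.837 to 2.92 CPM in PC9 and 34.1 to 87 CPM in H1975, none exceeded 1 CPM in every PC9 library, NKX2-1, the transcription factor of lung epithelium, did in every H1975 library, and SFTPA1, a surfactant protein gene, was at 0 in H1975. The summed leukocyte, fibroblast and endothelial markers lay between 1.88 and 23.1 CPM. For each library, the log2 CPM of every gene minus its mean over the 12 libraries of the line was correlated with transcript length. A pair of libraries stood apart from the others of their group in this Spearman coefficient across genes. It was -0.401 in PC9 almonertinib library 3, against 0.158 and 0.0423 in the other PC9 almonertinib libraries. In H1975 almonertinib library 1 it was -0.318, against 0.4 and 0.108. H1975 paclitaxel library 1 (0.341 against -0.467 and -0.473) and H1975 control library 3 (0.349 against -0.242 and -0.24) also differed from their groups in that coefficient, and mitochondrial genes took 2.5% of the counts of that paclitaxel library. The labels do not say that repeats were separate cultures, so p-values here speak of the variation among these libraries alone, part of which may be technical. The strand that was counted is not stated, so reads of overlapping genes on opposite strands may have been mixed: 43.5% of the exon bases of POLR1G overlap ERCC1, 27.4% of NHP2 overlap RMND5B and 23.2% of HEATR1 overlap LGALS8. PPAN shares 56.0% of its exon bases with the readthrough gene PPAN-P2RY11.

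The promoters of the genes were examined for the E-box CACGTG, the site that MYC with MAX is known to bind. RefSeq promoter windows on GRCh38.p14, from 250 bases before to 50 bases after the annotated start, were matched by symbol for 42 of the 51 genes. BOP1, DDX18, NOLC1, NOP58, POLR1E, RRP12, RRP1B, RRS1 and URB2 were not matched. The letters CACGTG, which read the same on both strands, occurred in 16 of the 42 windows (38.1%), against 7.4% of all 27305 promoters in the table and 9.9% of the 10352 promoters of genes tested here. In 5 of the 16 the E-box lay before the RefSeq start. The distance was 12 bases in POLR1G, 16 in UTP4, 11 in NOP10, 10 in UTP20 and 237 in EBNA1BP2. GENCODE v29, used here for gene positions, begins most of these genes further upstream. Its starts are chr19:45406209 for POLR1G, chr16:69131291 for UTP4, chr15:34343177 for NOP10 and chr1:43270936 for EBNA1BP2. By those starts the E-boxes of these genes lie inside the gene. The E-box of UTP20 (GENCODE start chr12:101280109) lies before the start in both annotations. The 100 bases before the RefSeq start are shown for the 4 genes with the E-box close to it. They read 5′ to 3′ on the gene's strand, with the E-box in capitals. They lie at chr19:45406544-45406643 (POLR1G, plus strand), chr16:69132549-69132648 (UTP4, plus strand), chr15:34343137-34343236 (NOP10, minus strand) and chr12:101280005-101280104 (UTP20, plus strand).
POLR1G: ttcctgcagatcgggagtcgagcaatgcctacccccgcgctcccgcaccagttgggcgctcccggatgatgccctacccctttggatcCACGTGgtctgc
UTP4: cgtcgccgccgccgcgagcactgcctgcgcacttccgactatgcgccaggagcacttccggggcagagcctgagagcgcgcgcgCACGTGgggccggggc
NOP10: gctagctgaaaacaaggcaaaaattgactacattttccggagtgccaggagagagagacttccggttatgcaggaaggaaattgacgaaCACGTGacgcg
UTP20: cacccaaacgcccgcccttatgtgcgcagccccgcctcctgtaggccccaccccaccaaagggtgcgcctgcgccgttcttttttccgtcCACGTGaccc
The ETS core CCGGAA, searched on both strands and with letters that cannot overlap those of the E-box, occurred in 20 of the 42 windows (47.6%), against 17.6% of all promoters and 29.3% of those of tested genes. A match describes the letters in these windows and is no evidence of binding.

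**Figure D1:**
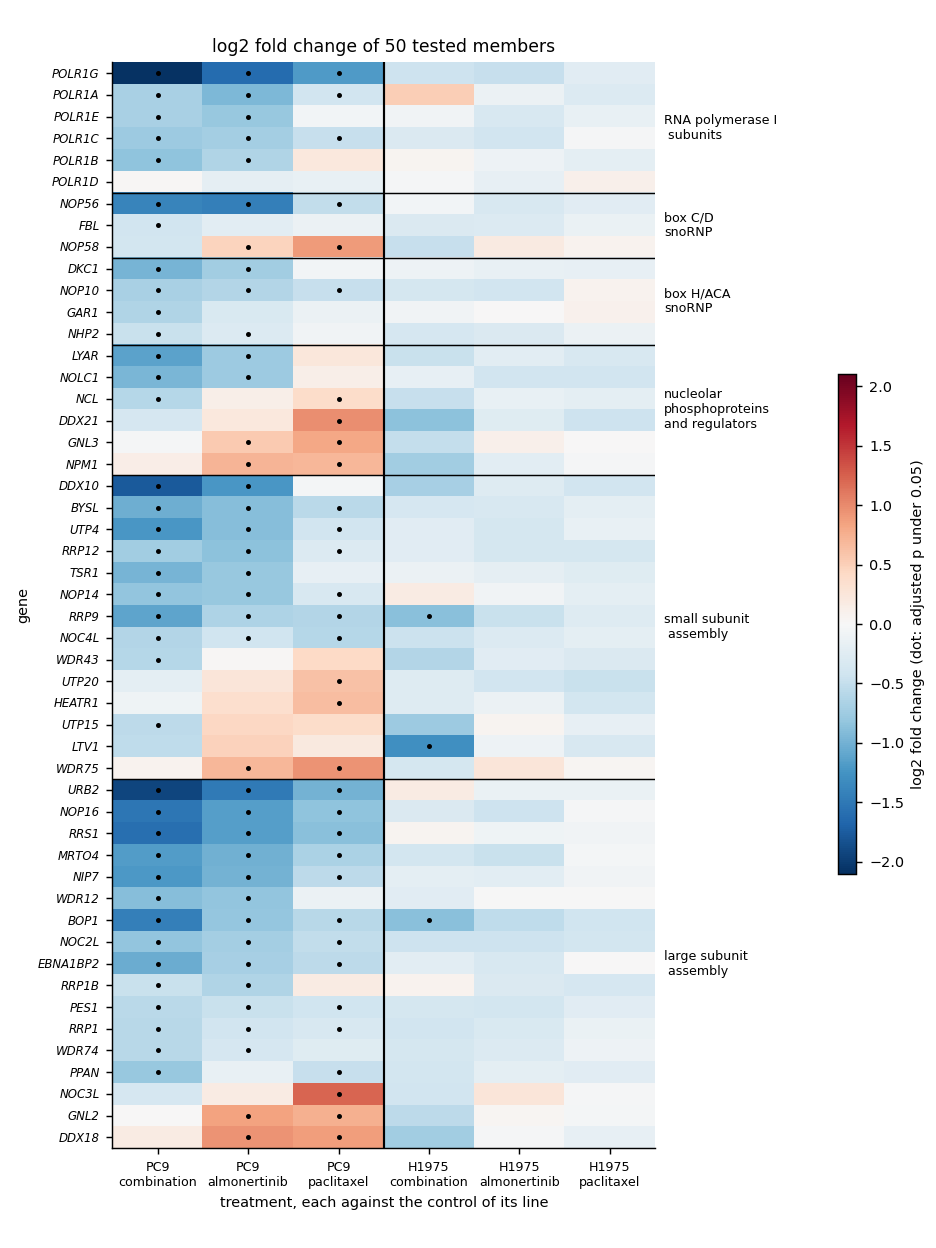
Heat map of the log2 fold change of the 50 tested genes (rows, grouped by role) under each treatment against the control of the same line (columns, PC9 left and H1975 right); a dot marks an edgeR adjusted p under 0.05. The PC9 columns hold 38 dots under the combination, all in genes that were lower, and the H1975 columns hold 3 in all.

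In PC9, almonertinib lowered most of the genes and raised NPM1, GNL3, GNL2, DDX18, WDR75 and NOP58. At an edgeR adjusted p under 0.05, 32 of the 50 genes fell and 6 rose, where 27.8% of all 12796 genes tested fell and 28.9% rose (56.7% called). The median of the 50 was -0.63 on the log2 scale, and the median of all genes was 0.03. At least a 2-fold decrease was called for 7 of the 50, against 6.28% of all genes. Mitochondrial genes took 0.638% ± 0.196 of the counts with almonertinib and 1.3% ± 0.0819 in controls (SD, n = 3 each), with no overlap, and their part in these changes was not tested. Because RNA came from bulk cultures, fewer cells of a kind and less RNA per cell cannot be told apart.

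Among the polymerase subunits 5 of 6 fell under almonertinib. POLR1G, which pairs with POLR1E in a heterodimer found in RNA polymerase I and not in the other nuclear polymerases, is encoded at chr19:45406209-45410766 (ENSG00000117877). Its level was 13.7, 14 and 12.5 CPM with almonertinib and 55.3, 31.2 and 36.1 CPM in controls. The highest almonertinib library was below the lowest control, and control library 1 was above the other controls. The change was -1.61 ± 0.17 (log2 fold change ± SE, edgeR adjusted p = 8.1e-07), or 3.05-fold lower. ERCC1, on the opposite strand, changed by 0.15 in the same comparison (edgeR adjusted p = 0.21). POLR1A, the largest catalytic subunit (ENSG00000068654, chr2:86020216-86106155), had 45.1, 44 and 37.3 CPM with almonertinib and 89.2, 77.2 and 77.9 CPM in controls, with no overlap (-0.95 ± 0.11, edgeR adjusted p = 1.54e-06). POLR1B, the other catalytic core subunit, POLR1C and POLR1E also fell, by 0.63, 0.71 and 0.79 on the log2 scale (edgeR adjusted p = 0.00305, 0.000331 and 0.000189). POLR1D, which like POLR1C is shared with RNA polymerase III, had 91, 123 and 128 CPM with almonertinib and 139, 122 and 129 CPM in controls. Its groups overlapped, and its change of -0.19 was not called (95% interval -0.41 to 0.03).

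The RNP proteins differed among themselves. NOP56, a core protein of box C/D RNPs (ENSG00000101361, chr20:2652145-2658393), had 65.9, 74 and 76.4 CPM with almonertinib and 229, 179 and 176 CPM in controls, 2.70-fold lower (-1.43 ± 0.10, edgeR adjusted p = 7.93e-09). Every almonertinib library was far below every control. Its partner NOP58 had 19.5, 14.1 and 10.9 CPM with almonertinib and 12.8, 11.3 and 8.06 CPM in controls. These ranges overlapped, and the call of an increase (0.46 ± 0.19, edgeR adjusted p = 0.0476) was lost in 13 of 20 alternatives, among them leaving out almonertinib library 1 (0.22), control library 3 (0.30) or any library of the other PC9 treatments. FBL, the methyltransferase of the same particles, was not called (-0.22, edgeR adjusted p = 0.0825). Of the box H/ACA proteins, the pseudouridine synthase DKC1 fell by 0.73, NOP10 by 0.61 and NHP2 by 0.28, and GAR1 was not called (-0.32, edgeR adjusted p = 0.0616).

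In the nucleolar group NPM1 and GNL3 rose under almonertinib while NOLC1 and LYAR fell. NPM1, the abundant nucleolar chaperone nucleophosmin (ENSG00000181163, chr5:171387116-171411137), had 477, 501 and 385 CPM with almonertinib and 322, 275 and 234 CPM in controls. GNL3, the GTP-binding protein nucleostemin (ENSG00000163938, chr3:52681156-52694492), had 74.6, 70.2 and 60.2 CPM with almonertinib and 52.4, 48.3 and 38.7 CPM in controls. Neither gene's groups overlapped, and the changes were 0.72 ± 0.12 and 0.55 ± 0.11 (edgeR adjusted p = 8.23e-05 and 0.000491). NOLC1, a chaperone of the small nucleolar RNPs, had 94.4, 91.2 and 79.2 CPM with almonertinib and 179, 136 and 138 CPM in controls (-0.77 ± 0.11, edgeR adjusted p = 1.52e-05). The groups of NOLC1 did not overlap. LYAR changed by -0.77 ± 0.24 (edgeR adjusted p = 0.0118). The nucleolar proteins nucleolin (NCL, 0.12) and the helicase DDX21 (0.22) were not called.

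Of the 14 small subunit genes 8 fell under almonertinib, by 0.42 (NOC4L) to 1.23 (the helicase DDX10) on the log2 scale. Those were NOP14, RRP9, RRP12, UTP4, NOC4L, BYSL, TSR1 and DDX10. NOP14, a component of the small subunit processome, had the smallest p in this group, with 24.8, 25.2 and 23.1 CPM with almonertinib and 46.6, 39.4 and 40.1 CPM in controls (-0.79 ± 0.10, edgeR adjusted p = 4.78e-06). Its groups were widely apart. WDR75, another processome protein, had 6.91, 4.48 and 4.18 CPM with almonertinib and 4.22, 2.89 and 2.36 CPM in controls. The lowest almonertinib library lay just under the highest control. The call of an increase (0.69 ± 0.23, edgeR adjusted p = 0.019) was lost in 6 of 19 alternatives. Among them were those without almonertinib library 1 (0.43), control library 2 (0.62) or control library 3 (0.53).

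Of the 17 tested large subunit genes 13 fell under almonertinib and 2 rose. NOP16 had 36.6, 45.3 and 52.2 CPM with almonertinib and 118, 86.5 and 95.9 CPM in controls, with no overlap (-1.16 ± 0.12, edgeR adjusted p = 8.44e-07). URB2, a large subunit assembly factor in yeast (ENSG00000135763, chr1:229626234-229660199), had 8.84, 8.87 and 6.27 CPM with almonertinib and 24.3, 20.1 and 22.4 CPM in controls, 2.78-fold lower (-1.48 ± 0.16, edgeR adjusted p = 1.49e-06). The helicase DDX18 (ENSG00000088205, chr2:117814650-117832379) went the other way, with 37, 29.9 and 21.1 CPM with almonertinib and 19.9, 14.9 and 10.4 CPM in controls. Its groups did not overlap, although the lowest almonertinib library, library 3, was close to the highest control (0.95 ± 0.21, edgeR adjusted p = 0.0012, 1.93-fold higher). GNL2, a nucleolar GTPase, had 18.9, 16.8 and 16 CPM with almonertinib and 11.3, 10.5 and 6.74 CPM in controls (0.85 ± 0.19, edgeR adjusted p = 0.00109). All 3 PeBoW subunits, which process the large subunit precursor, fell: BOP1 by 0.82, WDR12 by 0.83 and PES1 by 0.47.

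**Figure D2:**
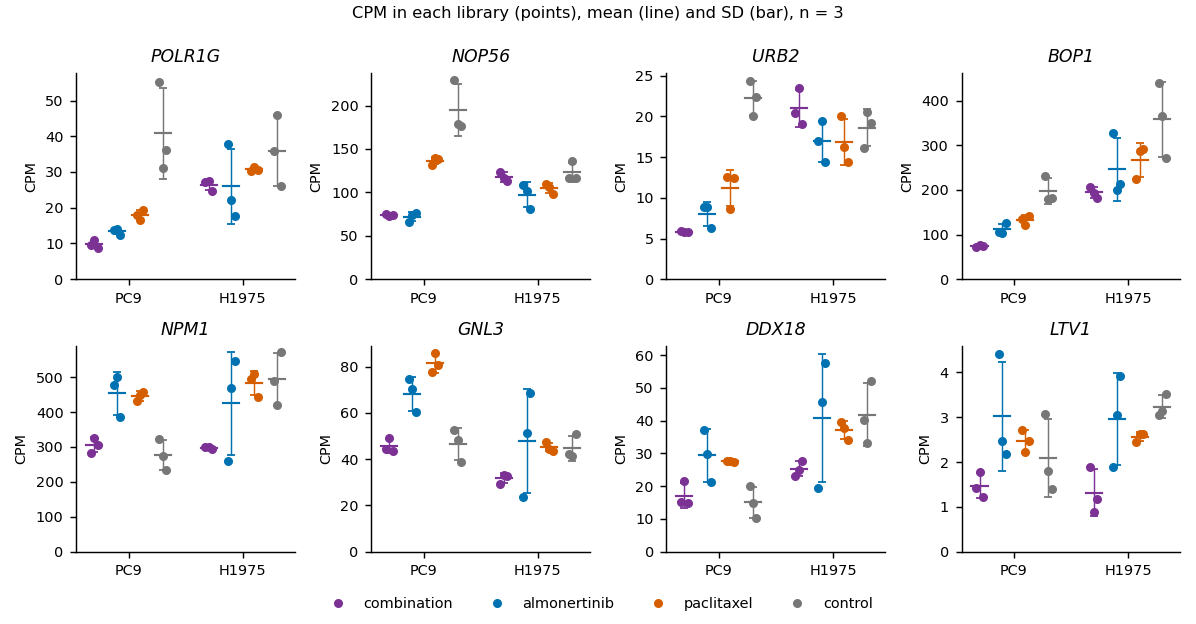
CPM (y axis) of 8 genes in every library, by line and treatment (colours); points are libraries, lines means and bars SD (n = 3). In PC9, POLR1G, NOP56, URB2 and BOP1 lie below controls under all treatments, and NPM1, GNL3 and DDX18 lie above controls under almonertinib and paclitaxel and at about the control level under the combination.

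Paclitaxel alone gave PC9 a mixed picture: 22 of the 50 genes fell and 11 rose. Of all 12796 genes 28% fell and 27% rose (55% called), and the median of the 50 was -0.14. After removal from each library of its trend with the length and GC content of transcripts, 15 fell and 13 rose. Without control library 1, in which the genes stood highest, 17 fell and 16 rose. Shares of all genes called in these settings are not given here, so these counts have no baseline. The coefficient with transcript length, of levels relative to the PC9 mean, was 0.326, 0.287 and 0.27 in the paclitaxel libraries and -0.141, -0.161 and -0.242 in controls. It thus moved with the treatment without overlap, and its part in these changes was not tested beyond the removal of the trend. A decrease of at least 2-fold was called for 1 gene, POLR1G, and for 2.94% of all genes. The controls are shared with the almonertinib comparison.

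POLR1G had 17.9, 16.7 and 19.4 CPM with paclitaxel and 55.3, 31.2 and 36.1 CPM in controls, 2.28-fold lower (-1.19 ± 0.17, edgeR adjusted p = 3.44e-05), with no overlap. POLR1A fell by 0.40 and POLR1C by 0.49 (edgeR adjusted p = 0.00432 and 0.00622), and POLR1B (0.22), POLR1D (-0.15) and POLR1E (-0.05) were not called. NOP56 had 132, 140 and 138 CPM with paclitaxel and 229, 179 and 176 CPM in controls (-0.51 ± 0.10, edgeR adjusted p = 0.000455). NOP10 was the box H/ACA protein that fell (-0.49 ± 0.12, edgeR adjusted p = 0.00291), with 118, 118 and 130 CPM with paclitaxel and 173, 157 and 183 CPM in controls. In both genes all paclitaxel libraries were below all controls. NOC4L fell most clearly among the small subunit genes, with 33.6, 33.6 and 38.8 CPM with paclitaxel and 51.5, 53.2 and 55.9 CPM in controls (-0.60 ± 0.10, edgeR adjusted p = 0.000103). Among large subunit genes NOP16 changed by -0.84 ± 0.12 (edgeR adjusted p = 4.74e-05), URB2 also fell (edgeR adjusted p = 0.000109), and 11 of 17 fell in all.

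The nucleolar group was the one without a decrease under paclitaxel: GNL3, NPM1, DDX21 and NCL rose, and NOLC1 and LYAR were not called. GNL3 had 77.6, 86 and 80.6 CPM with paclitaxel and 52.4, 48.3 and 38.7 CPM in controls (0.81 ± 0.11, edgeR adjusted p = 3.14e-05). NPM1 had 431, 450 and 457 CPM with paclitaxel and 322, 275 and 234 CPM in controls (0.69 ± 0.12, edgeR adjusted p = 0.000188). DDX21, an RNA helicase of the nucleolus, had 110, 110 and 105 CPM with paclitaxel and 70.3, 51.6 and 42.1 CPM in controls (0.98 ± 0.18, edgeR adjusted p = 3e-04). In these 3 genes no paclitaxel library reached down to the controls. NCL had 412, 390 and 397 CPM with paclitaxel and 382, 280 and 258 CPM in controls (0.38 ± 0.14, edgeR adjusted p = 0.0312). Its call was lost in 4 of 20 alternatives, among them without control library 2 (0.32), control library 3 (0.27) or paclitaxel library 1 (0.38).

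The other 7 genes that rose under paclitaxel were NOP58, NOC3L, DDX18, GNL2, WDR75, HEATR1 and UTP20. NOC3L, a large subunit factor at low level, had 8.83, 9.65 and 9.9 CPM with paclitaxel and 5.78, 3.29 and 2.92 CPM in controls, 2.32-fold higher (1.22 ± 0.29, edgeR adjusted p = 0.00255). NOP58 had 19.1, 19.5 and 21.8 CPM with paclitaxel and 12.8, 11.3 and 8.06 CPM in controls (0.90 ± 0.19, edgeR adjusted p = 0.000876). Neither gene's groups overlapped. DDX18 rose by 0.87 and GNL2 by 0.75 on the log2 scale, and WDR75 had 6.24, 6.33 and 5.81 CPM with paclitaxel and 4.22, 2.89 and 2.36 CPM in controls (0.94 ± 0.23, edgeR adjusted p = 0.00295). HEATR1, a processome scaffold, had 32, 29.4 and 25.9 CPM with paclitaxel and 22.1, 20.7 and 12.5 CPM in controls (0.65 ± 0.19, edgeR adjusted p = 0.00878). LGALS8, whose exons overlap those of HEATR1 on the opposite strand, rose by 1.05 ± 0.16 in the same comparison (edgeR adjusted p = 7.43e-05), and its part in the value of HEATR1 was not tested. UTP20 had 14.3, 13.1 and 9.95 CPM with paclitaxel and 10.2, 8.12 and 6.05 CPM in controls, with overlap. The call of UTP20 (0.61 ± 0.22, edgeR adjusted p = 0.0297) was lost in 6 of 20 alternatives. Among them were those without control library 2 (0.60), control library 3 (0.44), paclitaxel library 1 (0.52) or paclitaxel library 2 (0.59). It was also lost with the length and GC trend removed (0.15).

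The genes that rose and those that fell differed in base composition. Transcript GC content was 37.7 to 47.2% (median 41.5%) in the 11 genes that rose under paclitaxel and 43.9 to 65.2% (median 55.3%) in the 22 that fell. Across the 50 genes the Spearman coefficient of the paclitaxel response with GC content was -0.746, and across 12784 genes it was -0.5. For almonertinib these coefficients were -0.44 and -0.176, with 39.3 to 45.3% GC in the 6 genes that rose and 40.2 to 65.2% in the 32 that fell. The genes of a fold change share its libraries, so these coefficients are descriptions. With the length and GC trend removed, 30 of the 32 genes lower under almonertinib were still called lower and 4 of the 6 risers were still called higher, NOP58 and WDR75 losing their calls. Under paclitaxel 13 of the 22 genes that fell and 9 of the 11 that rose kept their calls. The part of base composition in these responses was not tested beyond this removal.

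The combination in PC9 lowered 38 of the 50 genes and raised none. Of all 12796 genes 26% fell and 24.7% rose (50.7% called). The median of the 50 was -0.68, and a decrease of at least 2-fold was called for 14 of the 50 and for 4.97% of all genes. The 50 genes took 0.281% ± 0.0119 of all counts with the combination, 0.335% ± 0.0278 with almonertinib, 0.46% ± 0.00896 with paclitaxel and 0.414% ± 0.0538 in controls (SD, n = 3 each).

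POLR1G had 9.56, 10.9 and 8.68 CPM with the combination and 55.3, 31.2 and 36.1 CPM in controls, 4.21-fold lower (-2.07 ± 0.17, edgeR adjusted p = 1.14e-07), the largest decrease of the 50. ERCC1 changed by 0.01 in this comparison (edgeR adjusted p = 0.929). POLR1A had 50.9, 52.7 and 48.6 CPM with the combination and 89.2, 77.2 and 77.9 CPM in controls (-0.68 ± 0.11, edgeR adjusted p = 5.67e-05). All combination libraries of both genes were below all controls. POLR1B (-0.84 ± 0.16), POLR1C (-0.76 ± 0.14) and POLR1E (-0.68 ± 0.14) also fell (edgeR adjusted p = 0.000418, 0.000229 and 0.000851). POLR1D had 137, 122 and 138 CPM with the combination and 139, 122 and 129 CPM in controls, and its change was 0.03 (95% interval -0.19 to 0.24).

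Each of the 4 box H/ACA genes fell, DKC1 most clearly, with 50.4, 50.5 and 45.9 CPM with the combination and 113, 92 and 84.9 CPM in controls (-0.98 ± 0.11, edgeR adjusted p = 2.86e-06). NOP56 had 75.4, 73.2 and 74.3 CPM with the combination, against the 229, 179 and 176 CPM of controls, 2.62-fold lower (-1.39 ± 0.10, edgeR adjusted p = 2.27e-08). FBL fell by 0.40 and NOP58 was not called (-0.38, edgeR adjusted p = 0.114). In the nucleolar group NOLC1 (-0.96 ± 0.11, edgeR adjusted p = 2.4e-06), LYAR (-1.12) and NCL (-0.60) fell. NPM1 had 284, 327 and 307 CPM with the combination and 322, 275 and 234 CPM in controls, and GNL3 had 44.3, 49.2 and 43.3 CPM with the combination and 52.4, 48.3 and 38.7 CPM in controls. Both overlapped the controls and were not called (0.14 and -0.03, edgeR adjusted p = 0.323 and 0.856).

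Small subunit genes fell in 10 of 14 cases. UTP4, a processome protein whose E-box is shown above, had 28.2, 29.4 and 25.1 CPM with the combination and 78.8, 56.3 and 58.5 CPM in controls (-1.23 ± 0.12, edgeR adjusted p = 4.61e-07). DDX10 had 3.33, 4.58 and 4.02 CPM with the combination and 13, 16.2 and 11.2 CPM in controls, 3.38-fold lower (-1.76 ± 0.20, edgeR adjusted p = 2.9e-06). The groups of both genes were well apart. Large subunit genes fell in 14 of 17 cases, led by BOP1, a PeBoW scaffold, with 71.6, 76.2 and 73.3 CPM with the combination and 232, 180 and 182 CPM in controls (-1.43 ± 0.11, edgeR adjusted p = 4.35e-08, 2.69-fold lower). URB2 had 5.95, 5.81 and 5.77 CPM with the combination and 24.3, 20.1 and 22.4 CPM in controls, 3.81-fold lower (-1.93 ± 0.17, edgeR adjusted p = 1.86e-07). All 5 of POLR1D's fellow subunits, UTP4, BOP1 and URB2 had combination libraries below every control. The 12 genes that were not called were POLR1D, NOP58, DDX18, GNL2, NOC3L, DDX21, GNL3, NPM1, HEATR1, LTV1, UTP20 and WDR75.

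The PC9 responses were also counted by promoter letters. Under the combination 11 of the 15 tested genes with an E-box fell, and 20 of the 26 without one. Under almonertinib 9 of 15 with an E-box fell and 16 of 26 without one, and 13 of 19 with the ETS core fell and 12 of 22 without it. The difference between these shares was not tested.

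**Figure D3:**
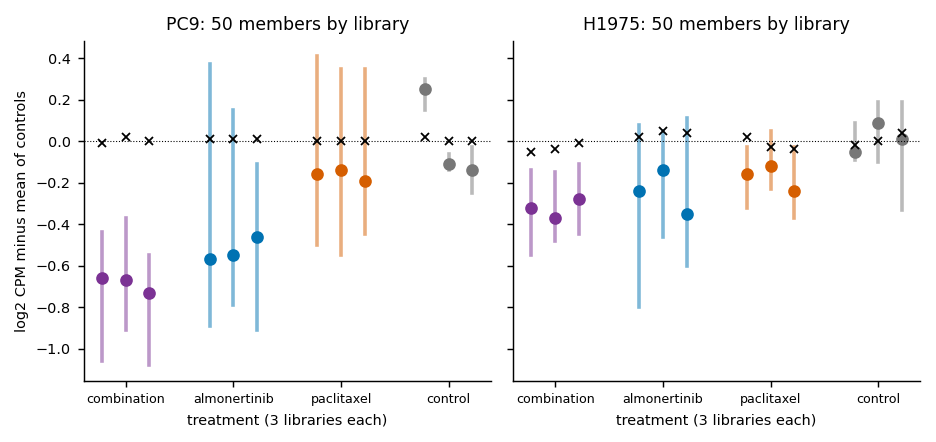
Median (circle) and quartiles (bar) over the 50 tested genes of log2 CPM minus the mean of the controls (y axis), for each library of each treatment (x axis), with the median of all genes as a cross. In PC9 the combination libraries lie between -0.73 and -0.66 and control library 1 at 0.25, while in H1975 the combination libraries lie between -0.37 and -0.28.

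By library, the median of the 50 genes against the mean of controls was -0.66, -0.67 and -0.73 on the log2 scale in PC9 with the combination, -0.57, -0.55 and -0.46 with almonertinib, -0.16, -0.14 and -0.19 with paclitaxel, and 0.25, -0.11 and -0.14 in controls. Control library 1 was the highest, with 2 of 50 genes below the control mean, and the other controls had 40 and 41 below it. The combination and almonertinib libraries were below all controls in this median, and the paclitaxel libraries were at or just below control libraries 2 and 3.

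Against almonertinib alone in PC9, the combination had 16 of the 50 genes lower and none higher, with 9.74% of all genes lower and 10.3% higher (20.1% called). No polymerase subunit was called in this comparison: POLR1G differed by -0.46 ± 0.18 (edgeR adjusted p = 0.0729) and POLR1A by 0.27 (edgeR adjusted p = 0.0843). The 16 genes were NOP58, BOP1, DDX18, EBNA1BP2, GNL2, PPAN, RRS1, DDX21, GNL3, NCL, NPM1, LTV1, RRP9, UTP15, UTP4 and WDR43. BOP1 had 71.6, 76.2 and 73.3 CPM with the combination and 106, 104 and 126 CPM with almonertinib (-0.60 ± 0.11, edgeR adjusted p = 0.00102). GNL3 had 44.3, 49.2 and 43.3 CPM with the combination and 74.6, 70.2 and 60.2 CPM with almonertinib (-0.58 ± 0.11, edgeR adjusted p = 0.00163). In both genes all combination libraries were below all almonertinib libraries. The count was 7 without combination library 1, 7 without combination library 3 and 24 without almonertinib library 3. Shares of all genes called without these libraries are not given here.

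Against paclitaxel alone in PC9, the combination had 42 of the 50 genes lower and none higher, with 22.4% of all genes lower and 21.7% higher (44.1% called). NOLC1 had 76, 84.1 and 72.3 CPM with the combination and 170, 158 and 163 CPM with paclitaxel (-1.08 ± 0.11, edgeR adjusted p = 1.38e-06). NOP56 differed by -0.88 ± 0.10 (edgeR adjusted p = 4.54e-06), with 75.4, 73.2 and 74.3 CPM with the combination and 132, 140 and 138 CPM with paclitaxel. The combination libraries of both genes lay far below the paclitaxel libraries. Of the polymerase subunits POLR1B (-1.06 ± 0.16, edgeR adjusted p = 6.46e-05), POLR1G (-0.89 ± 0.17, edgeR adjusted p = 0.000677), POLR1E (-0.63 ± 0.14, edgeR adjusted p = 0.00186) and POLR1A (-0.28 ± 0.11, edgeR adjusted p = 0.0381) were lower. The call of POLR1A was lost in 7 of 20 alternatives. Among them were those without paclitaxel library 1 (-0.20) or 3 (-0.30), or without combination library 1 (-0.29) or 3 (-0.25). It was also lost with RLE size factors (-0.24) and in DESeq2 (-0.24). The 8 genes not called were POLR1C, POLR1D, NOP10, PES1, PPAN, RRP1, LTV1 and NOC4L.

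The interaction term compares the combination with the sum of both single-drug changes on the log2 scale. In PC9 the combination was lower than that sum for 14 genes and higher for 9, with 23.4% of all genes lower and 22.1% higher (45.5% called). The 14 were NOP58, DDX18, GNL2, NOC3L, DDX21, GNL3, NCL, NPM1, HEATR1, LTV1, UTP15, UTP20, WDR43 and WDR75. The single-drug changes enter the term with a minus sign, so a gene that rose under a single drug tends to a negative term and one that fell to a positive term by construction. A called negative term of at least 2-fold was found for 14 of the 50 (28%) and for 14.1% of all genes. For GNL3, which rose under each drug alone and lay at the control level under both, the term was -1.39 ± 0.16 (edgeR adjusted p = 5.21e-06), and for NPM1 it was -1.26 ± 0.17 (edgeR adjusted p = 2.61e-05). The 9 with a positive term were POLR1A, POLR1G, NOP56, MRTO4, NOC2L, NOP16, BYSL, NOC4L and RRP12. POLR1A had a term of 0.67 ± 0.15 (edgeR adjusted p = 0.00183) and NOP56 of 0.55 ± 0.14 (edgeR adjusted p = 0.00424). Of 20 alternatives, the call of POLR1A was lost in 3 and that of NOP56 in 2. POLR1G had 0.72 ± 0.24 (edgeR adjusted p = 0.0216). Its call was lost in 6 of the 20, among them without control library 1 (0.44), paclitaxel library 2 (0.66) or combination library 2 (0.63).

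Base composition moved with the interaction term as well. The 14 genes with a negative term had 37.7 to 47.2% GC (median 41.4%) and the 9 with a positive term 51.7 to 64.8% (median 56%). In 3 equal classes of GC content, divided at 44.8 and 55.3%, the median term of the genes described was -1.24, 0.18 and 0.25, and that of all genes was -0.75, 0.22 and 0.20. The Spearman coefficient with GC content was 0.669 over the 50 genes and 0.459 over 12784 genes, with all points sharing the same 12 libraries. With the length and GC trend removed, 19 genes had a negative and 2 a positive term. Of the 14 negative terms 12 were still called, and of the 9 positive terms 0 were. Without control library 1 there were 17 negative and 3 positive terms, and without almonertinib library 3 there were 18 negative and 13 positive. Shares of all genes without these libraries, or with the trend removed, are not given here.

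**Figure D4:**
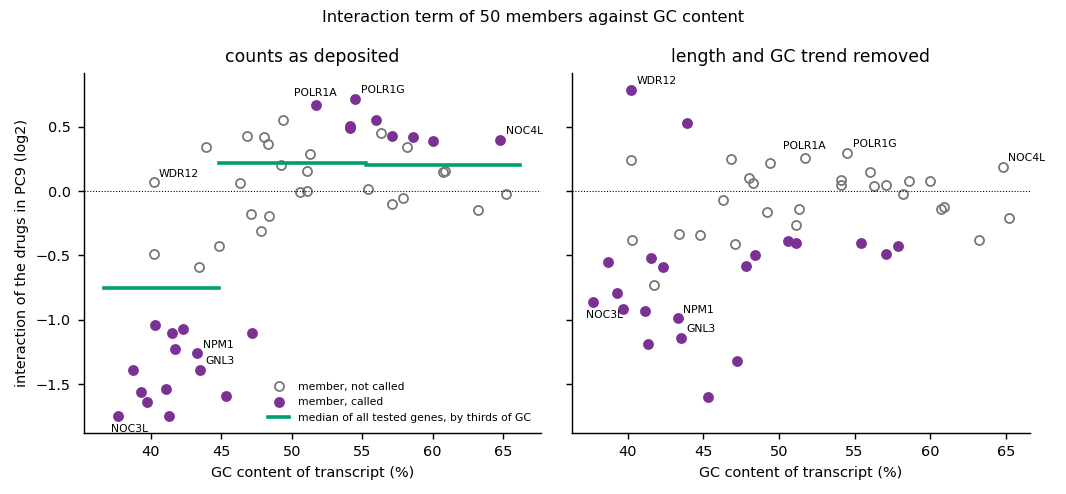
Interaction term of the drugs in PC9 (y axis, log2) against the GC content of the transcript (x axis, %) for the 50 tested genes, from the counts as deposited (left) and with a length and GC trend removed from each library (right); filled points have an edgeR adjusted p under 0.05 and green lines are medians of all genes in 3 equal GC classes. On the left 14 filled points lie below 0 and 9 above, on the right 19 below and 2 above.

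In H1975 few single genes of the set passed the test, although most lay slightly below the controls. No gene of the 50 was called under almonertinib in edgeR or in DESeq2, where 1.95% of all 12345 genes were called in edgeR (1.35% higher, 241 genes in all, and 353 in DESeq2), and 9 of the 50 had an unadjusted p under 0.05. No gene of the 50 was called under paclitaxel in edgeR or in DESeq2, where 0.64% of all genes were called in edgeR (0.446% higher, 79 genes in all, and 172 in DESeq2), and 2 of the 50 had an unadjusted p under 0.05. Under the combination 3 of the 50 fell and none rose, with 0.697% of all genes lower and 1.77% higher (2.46% called), and 11 had an unadjusted p under 0.05. How many of all genes reached that unadjusted threshold in these comparisons is not given here, so these counts have no baseline. The medians of the 50 were -0.36 with the combination, -0.25 with almonertinib and -0.18 with paclitaxel. The fold changes were below 0 in 44, 43 and 43 of the 50, in the same order, from the same 3 controls. By library, the median of all genes against the mean of controls was -0.05, -0.04 and -0.01 with the combination. It was 0.02, 0.05 and 0.04 with almonertinib and 0.02, -0.03 and -0.04 with paclitaxel. The share of all genes below 0 is not given here. The 50 genes took 0.497% ± 0.00493 of all counts with the combination, 0.513% ± 0.043 with almonertinib, 0.549% ± 0.0254 with paclitaxel and 0.591% ± 0.0151 in controls (SD, n = 3 each).

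The 3 genes lower under the combination in H1975 were LTV1, RRP9 and BOP1. LTV1, a late small subunit factor (ENSG00000135521, chr6:143843344-143863812), had 1.89, 0.887 and 1.18 CPM with the combination, from 35, 14 and 24 reads, and 3.05, 3.14 and 3.52 CPM in controls, from 66, 55 and 72 reads. It was 2.43-fold lower (-1.28 ± 0.30, edgeR adjusted p = 0.0375), and 27.7% of its exon bases overlap AL049844.3 on the same strand. RRP9, a protein of the U3 small nucleolar RNP, had 105, 99.3 and 103 CPM with the combination and 219, 205 and 139 CPM in controls (-0.87 ± 0.21, edgeR adjusted p = 0.0401). BOP1 had 206, 194 and 183 CPM with the combination and 439, 366 and 271 CPM in controls (-0.88 ± 0.22, edgeR adjusted p = 0.042). None of the 3 overlapped its controls. These calls depended on single libraries: the count was 0 without control library 1 or 2, paclitaxel library 2 or 3, or combination library 2 or 3, it was 1 without combination library 1, and it was 13 without almonertinib library 1. The length and GC trend removal gave 18 lower and none higher, and the replicate number as a block gave 0. The shares of all genes called in these settings are not given here.

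No polymerase subunit was called in H1975. POLR1G had 27.2, 27.6 and 24.7 CPM with the combination, 37.8, 22.3 and 17.8 CPM with almonertinib, 30.2, 31.3 and 30.6 CPM with paclitaxel and 35.9, 46 and 26.1 CPM in controls. Every treated group overlapped the controls, and the changes were -0.44 ± 0.24 with the combination (edgeR adjusted p = 0.34), -0.48 with almonertinib and -0.23 with paclitaxel. POLR1A had 146, 128 and 120 CPM with the combination and 78.2, 106 and 92.1 CPM in controls. The combination libraries were all above the controls, and the change of 0.51 ± 0.23 was not called (edgeR adjusted p = 0.251). The other subunits changed by -0.30 to 0.06 under the combination.

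NPM1 in H1975 had 299, 300 and 293 CPM with the combination, 260, 469 and 547 CPM with almonertinib, 496, 508 and 443 CPM with paclitaxel and 489, 421 and 571 CPM in controls. Almonertinib library 1 was below all controls while the other almonertinib libraries were among them. DDX21 had 43.9, 96.8 and 105 CPM and DDX18 19.3, 45.7 and 57.5 CPM in the almonertinib libraries, with the same library lowest. That library also stood apart in the relation of its levels, relative to the mean of the line, to transcript length. Without it, 11 of the 50 genes were lower and 1 higher under almonertinib. Its removal also gave the highest count of the 50 in the other H1975 comparisons with any call. The share of all genes called without it is not given here, so this count is not read as a response of the set.

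In edgeR no gene of the 50 differed between the combination and either single drug in H1975. Against almonertinib 0% of all genes and none of the 50 were called in edgeR, 1230 genes and 10 of the 50 had an unadjusted p under 0.05, and DESeq2 called 41 genes and 0 of the 50. Without almonertinib library 1, 14 of the 50 were called, 13 lower and 1 higher. Against paclitaxel 0% of all genes were called in edgeR, 1704 genes and 7 of the 50 had an unadjusted p under 0.05, and DESeq2 called 478 genes and 2 of the 50. Without almonertinib library 1, 5 of the 50 were lower and 2 higher, and without paclitaxel library 1 the count was 1. The interaction gave 0 of the 50 in edgeR and 1 in DESeq2, with 0.672% of all genes called (83 genes, 0.413% lower and 0.259% higher) and 6 of the 50 at an unadjusted p under 0.05. Without almonertinib library 1 it gave 5 negative and 3 positive terms. Shares of all genes without that library are not given here, nor is the number of all genes at an unadjusted p under 0.05 for the interaction.

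The difference between the lines was tested directly in a fit of all 24 libraries, where line and dose cannot be told apart. For the combination, 19 of the 50 genes responded lower in PC9 than in H1975 and 1 higher, with 11% of all 13380 genes lower and 6.99% higher (18% called). URB2 had the largest difference, -2.11 ± 0.25 (edgeR adjusted p = 2.32e-06), and it had 20.4, 23.5 and 19.1 CPM with the combination in H1975 and 16.1, 20.6 and 19.2 CPM in H1975 controls. Those H1975 groups overlapped, whereas in PC9 they were far apart. RRS1, a large subunit assembly factor, differed by -1.65 ± 0.22 (edgeR adjusted p = 1.62e-05), with 8.18, 9.34 and 8.44 CPM with the combination and 30.4, 23.2 and 24 CPM in controls of PC9. In H1975 it had 137, 139 and 125 CPM with the combination and 121, 155 and 110 CPM in controls, which overlap. NOP56 differed by -1.34 ± 0.18 (edgeR adjusted p = 1.62e-05). In H1975 it had 124, 117 and 113 CPM with the combination and 117, 136 and 116 CPM in controls, which overlap. Of the polymerase subunits POLR1G (-1.64 ± 0.32, edgeR adjusted p = 0.00105), POLR1A (-1.21 ± 0.27, edgeR adjusted p = 0.00313), POLR1B (-0.91 ± 0.23, edgeR adjusted p = 0.00861) and POLR1E (-0.62 ± 0.18, edgeR adjusted p = 0.0178) responded lower in PC9. NPM1 was the gene that responded higher in PC9 (0.86 ± 0.25, edgeR adjusted p = 0.0189). Of 32 alternatives, the call of POLR1E was lost in 6 and those of POLR1B and NPM1 in 1 each.

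**Figure D5:**
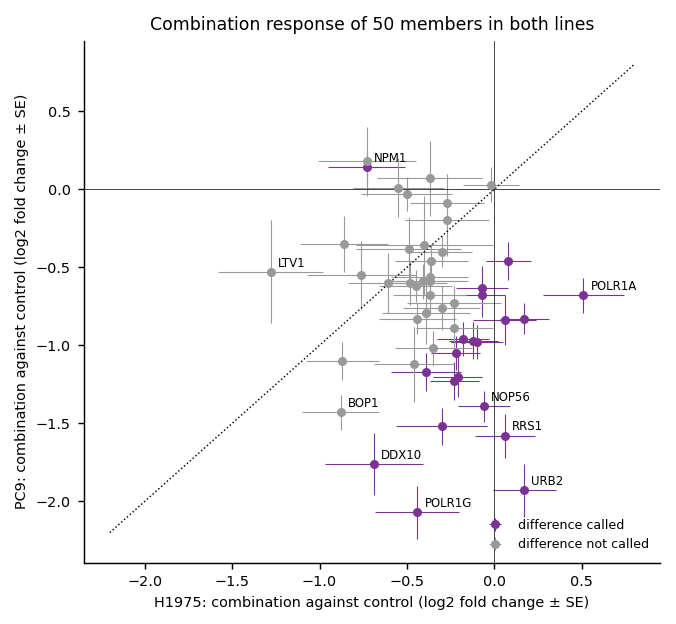
Log2 fold change of the 50 tested genes under the combination in PC9 (y axis) against H1975 (x axis), with SE bars from the fit of each line; purple points have a called difference between the lines (edgeR adjusted p under 0.05) and the dotted line marks equal responses. Of the 20 purple points 19 lie below the dotted line and NPM1 lies above it.

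Under almonertinib 11 of the 50 genes responded lower in PC9 than in H1975 and 1 higher, with 11% of all genes lower and 5.53% higher (16.6% called). URB2 (-1.36 ± 0.24, edgeR adjusted p = 0.000344), NOP56 (-1.11 ± 0.18, edgeR adjusted p = 0.000104) and RRS1 (-1.09 ± 0.22, edgeR adjusted p = 0.00108) were again among them, with DKC1, NIP7, WDR12, NOP14, TSR1 and UTP4. POLR1G (-1.15 ± 0.32, edgeR adjusted p = 0.0158) and POLR1A (-0.85 ± 0.27, edgeR adjusted p = 0.0345) completed the 11. The call of POLR1A was lost in 12 of 32 alternatives, among them without H1975 almonertinib library 1 (-0.58) or PC9 control library 1 (-0.75). That of POLR1G was lost in 3. NPM1 responded higher in PC9 (0.92 ± 0.25, edgeR adjusted p = 0.0134). The count of 12 was 7 without PC9 control library 1, for which the share of all genes called is not given here.

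Under paclitaxel 4 of the 50 genes responded lower in PC9 and 6 higher, with 7.21% of all genes lower and 9.9% higher (17.1% called). This split depended on the scaling. RLE size factors gave 5 lower and 3 higher, and the length and GC trend removal gave 4 lower and 12 higher. Shares of all genes called are not given here for these settings, nor for the libraries left out below. RRS1 (-0.79, edgeR adjusted p = 0.0157), URB2 (-0.84, edgeR adjusted p = 0.0198), EBNA1BP2 (-0.55, edgeR adjusted p = 0.0328) and POLR1G (-0.94 ± 0.32, edgeR adjusted p = 0.0432) were lower. Of 32 alternatives, the call was lost in 17 for POLR1G, 13 for EBNA1BP2, 5 for RRS1 and 3 for URB2. Among the genes higher in PC9, it was lost in 7 for UTP20 and 2 for HEATR1. DDX21 (1.44 ± 0.32, edgeR adjusted p = 0.00475), HEATR1 (1.06 ± 0.29, edgeR adjusted p = 0.0166), UTP20 (1.09 ± 0.34, edgeR adjusted p = 0.0297), RRP1B, NOLC1 and NPM1 were higher. The count of 10 was 2 without H1975 control library 3 or PC9 control library 3, 3 without H1975 paclitaxel library 2, 4 without H1975 paclitaxel library 3, PC9 paclitaxel library 1 or PC9 paclitaxel library 2, 6 without PC9 control library 2, and 21 without H1975 almonertinib library 1.

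Untreated cells of the lines also differed. In PC9 controls 32 of the 50 genes were lower than in H1975 controls and 5 were higher, with 33.8% of all genes lower and 34.9% higher (68.7% called), and the median of the 50 was -0.72. RRS1 had 30.5, 23.4 and 24.4 CPM in PC9 controls and 119, 153 and 106 CPM in H1975 controls, 4.82-fold lower in PC9 (-2.27 ± 0.16, edgeR adjusted p = 3.08e-12). POLR1E had 22.2, 17.4 and 15.6 CPM in PC9 controls and 42.6, 49 and 45.4 CPM in H1975 controls (-1.31 ± 0.13, edgeR adjusted p = 1.68e-09). LYAR was 3.45-fold lower in PC9 controls (-1.79 ± 0.24, edgeR adjusted p = 3.4e-07). Neither RRS1 nor POLR1E overlapped between the lines. POLR1D went the other way, with 140, 123 and 131 CPM in PC9 controls and 65.9, 80.5 and 59.4 CPM in H1975 controls (0.94 ± 0.14, edgeR adjusted p = 3.1e-06). FBL (0.81 ± 0.15, edgeR adjusted p = 2.93e-05), NOP56 (0.70 ± 0.13, edgeR adjusted p = 2.59e-05), WDR74 (0.54) and EBNA1BP2 (0.32) were the other genes higher in PC9 controls. All these CPM values are scaled over the 24 libraries together.

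Levels were also scaled by the length of the longest annotated protein-coding transcript of each gene, 12749 bases for POLR1A. The mean levels of the subunits in PC9 controls were then 28.3 CPM per kb for POLR1D, 20.4 for POLR1C, 12.4 for POLR1G, 8.18 for POLR1E, 6.39 for POLR1A and 3.58 for POLR1B. In H1975 controls the order was POLR1C at 24 CPM per kb, POLR1E at 20.9, POLR1D at 15.2, POLR1G at 11, POLR1A at 7.22 and POLR1B at 6.02. The subunits shared with RNA polymerase III led in PC9 controls, and POLR1E moved up to stand between them in H1975 controls. Neighbours in these orders were not tested against each other, and other choices of transcript were not tried.

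The other genes of the pathway, 96 tested genes from lists of further polymerase I factors, small and large subunit factors and the RNA exosome, also moved in both directions in PC9. With the combination 55 fell and 6 rose, with almonertinib 39 fell and 18 rose, and with paclitaxel 33 fell and 33 rose. Over all genes tested, 26% fell and 24.7% rose with the combination, 27.8% fell and 28.9% rose with almonertinib, and 28% fell and 27% rose with paclitaxel. Of 15 further polymerase I subunits and factors 6, 3 and 6 fell and 0, 3 and 6 rose, in the order combination, almonertinib and paclitaxel. TBP, the TATA-binding protein of the promoter complex, fell by 1.03 under almonertinib, while the initiation factor RRN3 (0.60 ± 0.17) and the subunit POLR1F (0.80 ± 0.25) rose. Among 32 further small subunit genes 18, 13 and 10 fell and 0, 7 and 10 rose in the same order. PNO1, a late small subunit factor, changed by -1.55 ± 0.15 with the combination, and PDCD11, a processome protein, by -1.29 ± 0.13 with almonertinib. Among 36 further large subunit genes 23, 18 and 13 fell and 5, 7 and 14 rose. NSA2 and RSL24D1, large subunit factors, rose under all 3 treatments, by 0.71 and 0.87 with the combination, 0.95 and 1.17 with almonertinib, and 0.84 and 1.57 with paclitaxel. Among 13 exosome subunits, which trim rRNA precursors, 8, 5 and 4 fell and 1, 1 and 3 rose, and the exonuclease DIS3 rose each time (0.77, 1.65 and 1.21).

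MYC itself fell in PC9, with 64.4, 69.3 and 69.8 CPM with the combination, 105, 113 and 95.8 CPM with almonertinib, 138, 121 and 128 CPM with paclitaxel and 233, 177 and 197 CPM in controls. No treated group overlapped the controls. The changes were -1.58 ± 0.10 with the combination (edgeR adjusted p = 7.91e-09), -0.96 ± 0.10 with almonertinib (edgeR adjusted p = 8.94e-07) and -0.65 ± 0.10 with paclitaxel (edgeR adjusted p = 8e-05). In H1975 MYC had 442, 417 and 399 CPM with the combination, 473, 385 and 371 CPM with almonertinib, 409, 413 and 377 CPM with paclitaxel and 605, 744 and 609 CPM in controls. There too no treated group overlapped the controls. The changes in H1975 were -0.64 ± 0.16 with the combination (edgeR adjusted p = 0.0443), -0.67 ± 0.16 with almonertinib (edgeR adjusted p = 0.0404) and -0.71 ± 0.16 with paclitaxel (edgeR adjusted p = 0.0582, not called). The H1975 calls were lost in 11 of 20 alternatives for the combination and 10 of 20 for almonertinib. Of 10 tested genes of the MYC network, MYC included, 4 fell and 5 rose in PC9 with the combination, 4 fell and 5 rose with almonertinib, and 5 fell and 2 rose with paclitaxel. MXD1, which like MXD4 and MXI1 encodes an antagonist of MYC that binds MAX, fell under all 3 treatments (-0.90 with the combination, -2.79 ± 0.14 with almonertinib and -1.20 with paclitaxel). MXD4 rose with the combination (1.25) and almonertinib (1.66 ± 0.10) and was not called with paclitaxel (0.05, edgeR adjusted p = 0.697). MXI1 rose by 0.88 with the combination, 0.69 with almonertinib and 0.96 with paclitaxel, and the MYC paralogue MYCL by 1.98, 1.73 and 1.48 in the same order.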

How the data were processed

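RNA of 24 libraries was sequenced; per the labels' protocols it was extracted with TRIzol and prepared with a SMART-RNAseq kit. Raw read counts per gene, without normalisation, were deposited by the authors as 1 table of 19702 genes. The tools and build listed in the submitters' processing notes are HISAT2 2.2.1, HTSeq and GRCh38; the HTSeq version, annotation and strand are not given in the sources used here. All columns were assigned from their names, and 0 were left unused.

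The counts were fitted with edgeR 4.0.16 (R 4.3.3, limma 3.58.1): filterByExpr, TMM factors (0.856 to 1.15), a quasi-likelihood model of the group means, 2-sided tests and Benjamini-Hochberg adjustment over all genes tested. Each line was fitted on its 12 libraries (12796 genes tested in PC9 and 12345 in H1975). Differences between the lines used all 24 (13380 genes). Genes with an adjusted p under 0.05 were called. SE was taken as the size of the log2 fold change divided by the root of the F statistic. CPM are counts scaled to the TMM-adjusted library size, in CPM. The biological coefficient of variation was 0.111 in PC9 and 0.191 in H1975. Totals of 14232299 to 24245314 reads set the precision of low genes. The smallest chi-square per degree of freedom between repeats of a group was 3.78, so no library was a copy of another of its group. Libraries of different groups were not compared in this way. Lengths, GC content and positions came from GENCODE v29 on GRCh38, promoters from RefSeq GRCh38.p14.

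The 51 genes, the role groups and the other gene lists were chosen with earlier results of these data known. Library values and full statistics are given for all polymerase I subunits, for the called gene with the smallest p in each role group, for genes called against the majority direction, for up to 2 called genes in each direction in comparisons with single drugs and in the interaction, and for up to 3 between the lines; other genes are named with their direction or fold change, and some, such as NPM1, DDX21 and DDX18 in H1975, were picked after their values were seen.

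Alternatives were RLE size factors, no and a stricter filter (mean of 5 CPM, and 1 CPM or more in 3 libraries), DESeq2 1.42.0, the replicate number as a block, a spline trend on transcript length and GC content (5 degrees of freedom) removed with and without the block, all 24 libraries in 1 fit, and leaving out each library. Leaving out both almonertinib libraries that stood apart, in the fit of both lines, was added after seeing the data. Replicate numbers come from the labels, which do not tie a number to a shared culture. Correlations of same-numbered libraries' deviations were over 0.1 in all 3 pairs for PC9 almonertinib with control (0.119, 0.106 and 0.394) and H1975 combination with control (0.110, 0.169 and 0.345), and not for the other 10 pairs of groups. Figures were drawn with matplotlib 3.10.9.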

Additional observations from a re-analysis of the deposited data

Results flagged for a closer look

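The responses of several genes differed between PC9 and H1975 by a test of the difference itself (edgeR, all 24 libraries, adjusted p under 0.05), where line and dose cannot be told apart. For the combination the differences, PC9 minus H1975 in log2 units, were -2.11 for URB2, -1.65 for RRS1, -1.64 for POLR1G, -1.34 for NOP56, -1.21 for POLR1A, -0.91 for POLR1B, -0.62 for POLR1E and 0.86 for NPM1. For almonertinib they were -1.36 for URB2, -1.15 for POLR1G, -1.11 for NOP56, -1.09 for RRS1, -0.85 for POLR1A and 0.92 for NPM1. For paclitaxel they were -0.94 for POLR1G, -0.84 for URB2, -0.79 for RRS1, -0.55 for EBNA1BP2, 1.06 for HEATR1, 1.09 for UTP20 and 1.44 for DDX21. Several of these calls depended on the processing. Of 32 alternatives, the paclitaxel call was lost in 17 for POLR1G, 13 for EBNA1BP2 and 7 for UTP20. It was lost in 5 for RRS1, 3 for URB2 and 2 for HEATR1. The almonertinib call was lost in 12 for POLR1A and 3 for POLR1G. The combination call was lost in 6 for POLR1E and in 1 each for POLR1B and NPM1.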

How the results depend on the processing

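Of 3209 alternatives for 144 gene results, 3020 kept direction and call, 189 kept the direction and lost the call, and 0 reversed; 108 results lost the call under none. Counts of called genes moved by over 1.5 times as follows, and the cause was not tested. Shares of all genes called in these settings are not given here, so the counts have no baseline. The replicate block gave 25 in place of 16 for PC9 combination against almonertinib and 0 in place of 3 for the H1975 combination, and moved no other count so far; for PC9 almonertinib it gave 42 (34 lower, 8 higher) in place of 38. The length and GC trend removal, alone and with the replicate block, gave 25 and 27 for PC9 combination against almonertinib, 9 and 11 for H1975 almonertinib (0 before), 4 and 3 for H1975 paclitaxel (0), 18 and 17 for the H1975 combination, 1 and 1 for H1975 combination against paclitaxel (0), and 16 and 18 for the paclitaxel response between lines (10). All 24 libraries in 1 fit gave 4 for PC9 combination against almonertinib, 15 in place of 23 for the PC9 interaction, 5 for the H1975 combination, 3 for H1975 combination against paclitaxel and 1 for the H1975 interaction (0). DESeq2 gave 5 for the H1975 combination, 2 for H1975 combination against paclitaxel and 1 for the H1975 interaction. Leaving out both almonertinib libraries that stood apart, chosen after seeing the data, gave 21 for the paclitaxel response between lines (14 higher, 7 lower).

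Leaving out each library in turn, the PC9 counts ran from 35 to 43 for almonertinib, 28 to 36 for paclitaxel, 36 to 40 for the combination, 7 to 24 and 37 to 45 for the combination against almonertinib and against paclitaxel, and 17 to 31 for the interaction. The H1975 counts ran from 0 to 12, 0 to 0, 0 to 13, 0 to 14, 0 to 7 and 0 to 8 in the same order, each highest value above 0 being that without almonertinib library 1. Between the lines they ran from 7 to 17 for almonertinib, 2 to 21 for paclitaxel, 14 to 23 for the combination and 32 to 37 for controls. Shares of all genes called without each library are not given here. LTV1 rests on 14 to 72 reads in the H1975 libraries compared.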
